A study of Mus musculus with 3 samples.

Results

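MHC class II molecules present peptides from endocytosed protein to CD4+ T cells. The 10 mouse genes described here cover the pathway from the antigen-presenting chains to their transcriptional switch. H2-Aa and H2-Ab1 encode the alpha and beta chains of I-A, and H2-Eb1 encodes the beta chain of I-E. Cd74 encodes the invariant chain, which occupies the peptide groove until the molecule reaches the endosome. H2-DMa, H2-DMb1 and H2-DMb2 encode chains of H2-DM, which exchanges the last invariant chain fragment for peptide, and H2-Oa and H2-Ob encode H2-O, an inhibitor of H2-DM. Ciita encodes the transactivator without which the other genes are barely transcribed in most cells. The genes were chosen by name, with no measured value in the rule, and made up 10 of the 50262 genes in the table, with 1 row each.

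Class II expression is constitutive in dendritic cells and B cells, whereas macrophages, microglia and many non-immune cells acquire it under interferon gamma. In the brain, resting microglia carry little class II, and border macrophages and dendritic cells carry most of it. Single cells were sequenced from mouse glioblastomas, and the question asked here was which of these cells carried class II RNA, at which stage, and how much of the low signal in CD45- cells exceeded that of leukocyte RNA carried over in suspension.

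Tumors were started in adult mice of both sexes by intracranial injection of a Cre lentivirus. All groups shared a genotype that included a conditional transgene of wild-type human EGFR, Cdkn2a -/- and a conditional luciferase reporter, on a mixed background of Balb/cJ, SJL, FVBN/J, 129S4 and C57Bl/6J strains. Normal brain was not analysed here, and the MHC haplotypes of the animals are not given in the sources used here. Perfused brains without cerebellum were dissociated, viable CD45+ (leukocyte) and CD45- cells were sorted, and cells were barcoded in inDrop droplets. The groups were the CD45+ and CD45- cells of an early, a medium and a late (large) tumor sample. Each stage was thus 1 biological sample, the early sample being a pool of mice, so stages were compared as values with no test.

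After filtering, 17781 of 20811 cells remained, 5091, 3983 and 2111 CD45+ cells and 2725, 1603 and 2268 CD45- cells at the early, medium and late stage. Totals lay between 5381839 and 10808099 unique molecular identifiers (UMIs) per sort and stage, with a median of 2143 UMIs per cell. A level below is given in CPM, the UMIs of a gene in each 1000000 UMIs of the cells summed, and brackets after a level or ratio give exact intervals at 95%, which cover counting error and neither PCR nor animal differences. Ptprc, the gene of CD45, was at 227 to 250.2 CPM in CD45+ cells and at 3.59 to 15.9 in CD45- cells. There were 24 libraries, 4 per stage and sort, in 3 runs. A late CD45+ library held 17 cells, and 1285 kept cells shared a barcode with a cell of another library in the run. Without those cells the counts of members called below were 10, 4, 9, 0 and 1 against 10, 5, 9, 0 and 1, and without the small library the first count was 10.

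Of the 10 genes, 8 lie in the H2 region of chromosome 17, from H2-Oa at 34092340 to the end of H2-Eb1 at 34316674 (GRCm38), and Ciita lies on chromosome 16 (10480059 to 10528418). RefSeq promoter sequence of the GRCm38.p6 build was used for 7 of the 10 genes. H2-Ab1, Cd74 and Ciita were not searched, so nothing is read from their absence below. The Y box, with the letters CTGATTGG, is part of the promoter module on which the transactivator acts with factors bound to DNA. These letters, and the shorter letters ATTGG inside them, were searched on both strands in the 200 bases before each start. The Y box letters stood in 3 of these 7 genes, H2-Aa, H2-Eb1 and H2-Oa, and in 1164 of 32851 mouse promoters (3.54%). The shorter letters stood in all 7, for H2-DMa only at the farther of its annotated starts, and in 29.3% of promoters. A match of letters is not evidence of binding. Shown are the 200 bases upstream of H2-Aa (chr17:34287824-34288023, minus strand) and H2-Eb1 (chr17:34305667-34305866, plus strand), the classical chain genes whose windows lie wholly outside the transcript. Capitals mark the Y box letters, 51 bases upstream in H2-Aa and 62 in H2-Eb1, and in H2-Eb1 also a further CCAAT, the opposite strand of the shorter letters, 35 bases upstream.
H2-Aa: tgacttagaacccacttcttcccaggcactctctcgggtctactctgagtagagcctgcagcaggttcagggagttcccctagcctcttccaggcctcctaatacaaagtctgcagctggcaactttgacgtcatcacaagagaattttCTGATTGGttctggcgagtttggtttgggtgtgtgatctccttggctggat
H2-Eb1: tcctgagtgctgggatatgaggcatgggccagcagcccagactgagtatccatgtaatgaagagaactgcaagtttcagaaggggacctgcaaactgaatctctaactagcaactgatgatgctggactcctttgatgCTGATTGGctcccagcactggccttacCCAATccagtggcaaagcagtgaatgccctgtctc

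The whole set was higher in CD45+ than in CD45- cells, and its level in both sorts was highest at the medium stage for the 3 classical chains and Cd74. H2-Aa was at 2081, 9282 and 3638 CPM in early, medium and late CD45+ cells and at 143, 358 and 9.35 in CD45- cells. H2-Ab1 was at 475, 1495 and 923 in CD45+ and at 44.0, 110.1 and 6.14 in CD45- cells, and H2-Eb1 at 1507, 7064 and 2615 against 100.4, 373 and 3.12. Cd74, on chromosome 18, was at 2590.5, 9424 and 4131 CPM against 264, 433 and 9.44. For each of these genes, and for the other members given next, the lowest CD45+ value lay above the highest CD45- value. The share of all genes that did so was not counted, so nothing particular to the members is read from it.

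The H2-DM genes followed. H2-DMa was at 227, 572 and 359 CPM in CD45+ and at 20.4, 59.0 and 10.3 in CD45- cells. H2-DMb1 was at 116, 318 and 179 against 10.9, 28.8 and 0.661, and H2-DMb2 at 19.2, 37.1 and 23.0 against 3.58, 2.74 and 3.78. H2-DMb2 was the member whose CD45- level was no lower at the late stage than before, with 40 UMIs there. H2-DMb1 and H2-DMb2 are near-identical neighbours, so their reads may have been divided unevenly by the counting.

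The H2-O genes and the transactivator were scarce. H2-Oa was at 31.1, 87.2 and 12.3 CPM in CD45+ cells and at 2.84, 5.64 and 0 in CD45- cells. H2-Ob was at 29.1, 31.1 and 15.6 against 3.21 and 0.915 early and medium, with 2 UMIs in late CD45- cells. The late CD45+ levels of H2-Oa and H2-Ob thus lay below the early ones, whereas those of the other 8 members lay above. Ciita was at 19.5, 78.6 and 40.9 against 3.46 and 6.25, with 15 UMIs in late CD45- cells.

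**Figure D1:**
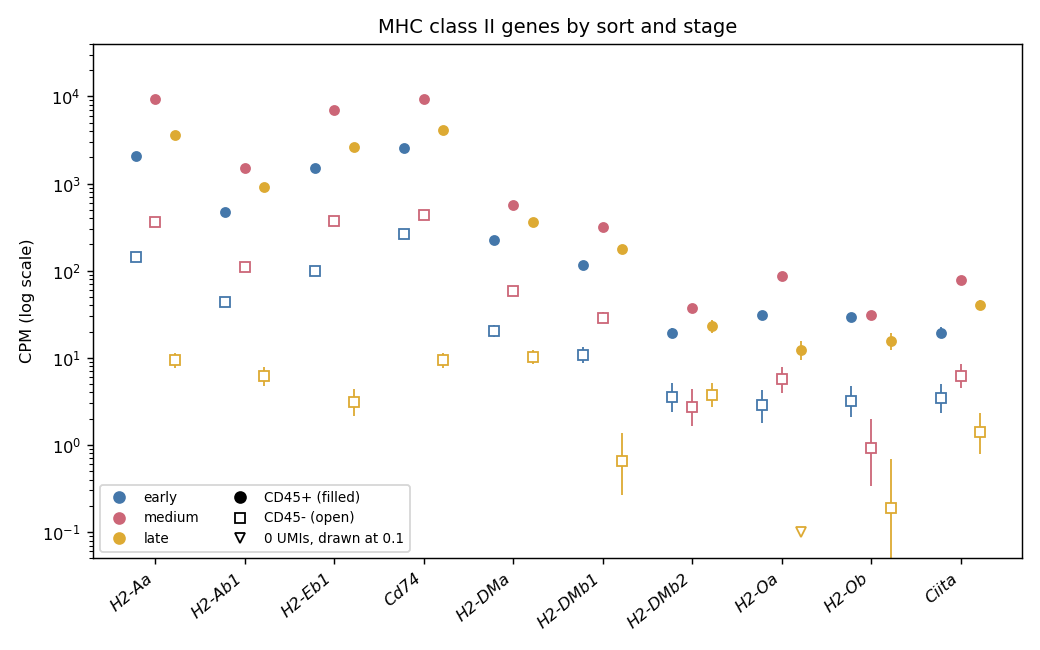
CPM (log axis) of the 10 class II genes in CD45+ (filled circles) and CD45- (open squares) cells of the early, medium and late tumor samples, with exact intervals at 95% that cover counting error and an open triangle at 0 UMIs. CD45+ values lie above CD45- values for every gene, and the late CD45- values of H2-Aa, H2-Eb1 and Cd74 (9.35, 3.12 and 9.44) lie far below the medium ones (358, 373 and 433).

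The sorts of the same tumor were compared on summed counts with edgeR, with the tumor sample as a block. All 10 genes were higher in CD45+ cells, each in 3 of 3 tumors, where 20.3% of the 19488 genes tested were called higher. The median log2 fold change of the members was 4.80, against -0.05 over all genes tested. H2-Aa was 58.3-fold higher (log2 5.86, SE 1.03, edgeR adjusted p = 0.00361) and H2-Eb1 56.2-fold (5.81, SE 1.23, adjusted p = 0.00815). Cd74 was 47.8-fold higher (adjusted p = 0.00711), H2-Ab1 32.3-fold (0.00265) and H2-DMb1 28.9-fold (0.00368). The smallest differences were those of H2-DMb2, 9.58-fold (log2 3.26, SE 0.34, adjusted p = 0.000297), and Ciita, 15.9-fold (log2 3.99, SE 0.44, adjusted p = 0.000504). H2-DMa, H2-Oa and H2-Ob lay between, at 19.7-fold, 23.0-fold and 26.7-fold. With no filter on low counts 5 members remained called (H2-DMa, H2-DMb2, H2-Oa, H2-Ob and Ciita), and without the medium tumor 8 were called. Without TMM factors the median of all genes moved to -0.41 and that of the members to 4.44, and of all calls 28.6% rather than 44.1% were higher.

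The ratio between sorts widened at the late stage. Summed over H2-Aa, H2-Ab1, H2-Eb1 and Cd74, called the class II sum below, CD45+ cells held 6654, 27265 and 11307 CPM and CD45- cells 552, 1274 and 28. The ratios were 12.1 (11.7 to 12.4), 21.4 (20.9 to 21.9) and 403 (359.7 to 453). Cells of leukocyte class in the CD45- sort moved with this: 9.25%, 6.80% and 1.90% of its cells at the early, medium and late stage clustered with leukocytes and held 89.7%, 74.9% and 5.05% of its class II sum. The remaining CD45- cells were at 61.3, 334 and 26.9 CPM, so the medium stage stood highest there too.

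Cells were then grouped into 40 clusters without use of the class II genes or the pathway lists, and clusters were named from marker genes with the ending -like. Of these, 6 stayed unnamed and are called by their leading gene. The grouping was still made from other genes of the same cells, so a class comparison is not independent of it. Conventional dendritic-like cells were at 63994, 50359.8 and 52832 CPM at the early, medium and late stage, the highest class II sum of any named CD45+ class at each. Border or perivascular macrophage-like cells were at 35492, 33969 and 18073, and macrophage or monocyte-like cells at 33407, 35250.0 and 15653.

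Microglia-like cells were at 2709.7, 21011 and 737 CPM. B cell-like cells, which reached 20 cells at the medium stage alone, were at 10734, below the medium microglia-like cells, and plasmacytoid dendritic-like cells were at 15643. T cell-like cells, a group that also held natural killer genes, were at 3442, 14054 and 1155, and neutrophil-like cells at 910.0, 2105 and 1149. Mouse T cells and neutrophils are known to make little class II. Their sums were carried by a part of the cells. At the medium stage 169 of 419 T cell-like cells had at least 10 UMIs of the sum and held 97.7% of it, the other cells being at 567 CPM. In neutrophil-like cells 41 of 328 held 94.2%, and the others were at 139.5 CPM. These cells are set apart by the measured sum itself, which makes the split a description, and the part of RNA from other cells or of doublets in them was not tested.

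The unnamed clusters spanned a wide range. The Cxcl9-led cluster was at 28098, 56739.9 and 12726 CPM and exceeded the dendritic-like cells at the medium stage. The Rnase2a-led cluster, which also expressed Arg1, Gpnmb and Spp1, was at 11668, 27335 and 24054, and the Hpse-led cluster at 23568 at the medium stage. The Cdca2-led cluster was at 6416, 16827 and 5409.6 and the Gm21738-led cluster at 3983, 35447 and 7729.6. The Itga8-led cluster, which held 20 or more CD45+ cells late alone, was at 793, below late neutrophil-like cells. Because they were unnamed, these clusters were not tested.

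By cluster class, the cells that held most class II RNA differed between stages. At the early stage microglia-like cells, 76.3% of CD45+ cells, held 30.1% of the class II sum, border or perivascular macrophage-like cells 26.8%, and dendritic-like cells, 1.22% of cells, 16.4%. At the medium stage the Cxcl9-led cluster held 51.4%. At the late stage the Rnase2a-led cluster, 28.5% of cells, held 74.1%, whereas microglia-like cells, 44.6% of cells, held 2.26%. These shares turned with the definition of the class. Cells classed as microglia-like by their own markers, which took in 852 of the 1074 medium Cxcl9-led and 522 of the 601 late Rnase2a-led cells, held 38821 of 71913, 179576 of 265266 and 44894 of 60853 UMIs of the class II sum at the early, medium and late stage, the larger part at each.

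**Figure D2:**
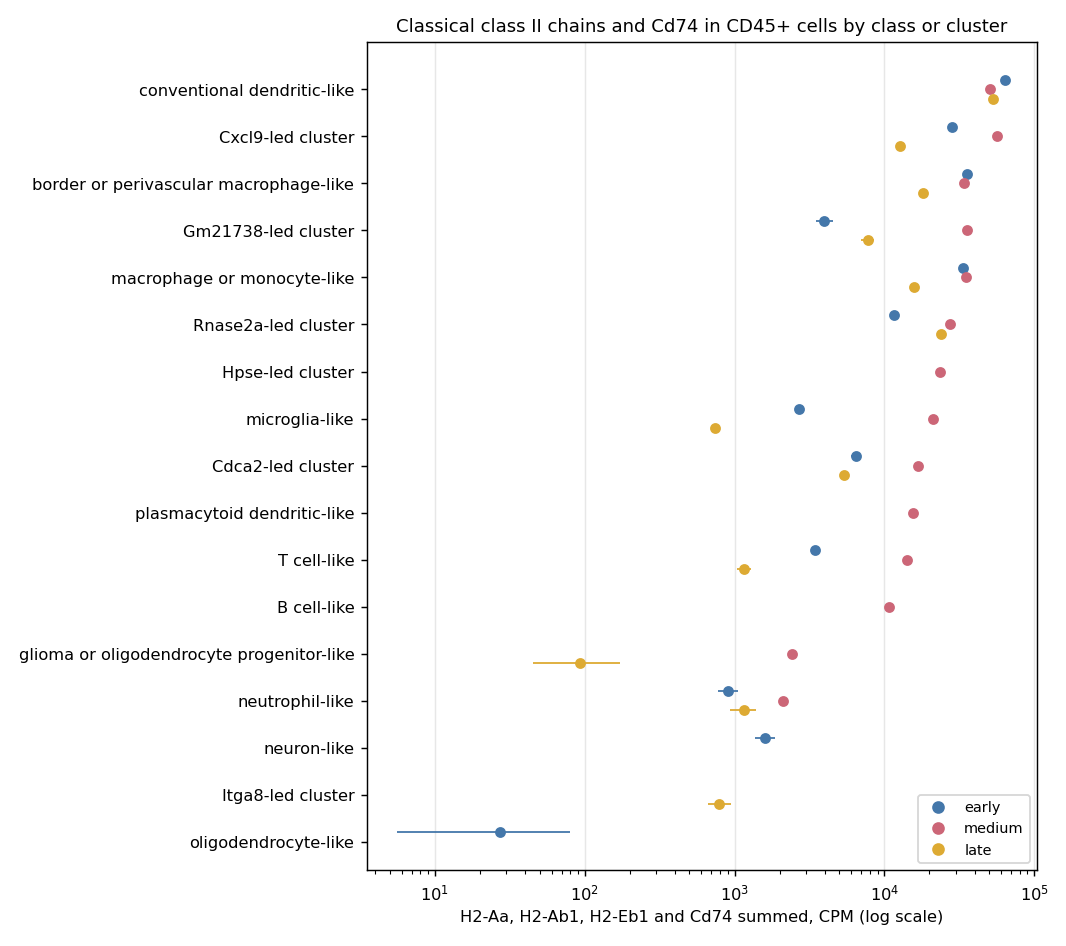
Class II sum (H2-Aa, H2-Ab1, H2-Eb1 and Cd74) in CPM (log axis) for each class or cluster of at least 20 CD45+ cells, by stage, with exact counting intervals at 95%. Conventional dendritic-like cells lie between 50359.8 and 63994 at all stages, whereas microglia-like cells move from 2709.7 to 21011 and to 737.

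Per cell, the class II sum made up a median of 6.52%, 5.40% and 5.55% of all UMIs of a dendritic-like cell at the early, medium and late stage. In microglia-like cells the medians were 0%, 1.24% and 0%. To compare shares of cells at equal depth, each cell was thinned to 1000 UMIs. At least 1 UMI of the sum was then seen in 99.6% of dendritic-like cells (267 of 268), and in 32.7%, 78.1% and 27.5% of microglia-like cells at the early, medium and late stage (41.8%, 83.2% and 39.5% before thinning). In CD45- oligodendrocyte-like cells the thinned share was 0.859% over all stages, and the medium share, given below, was higher.

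Between classes, edgeR was run on the counts of each class and tumor. Conventional dendritic-like cells exceeded microglia-like cells for 9 of 10 members, where 12.5% of genes tested were called higher. The members' median log2 fold change was 3.51, against -0.08 over all genes. H2-Aa was 20.7-fold higher (log2 4.37, SE 0.87, edgeR adjusted p = 0.000871), H2-Eb1 20.3-fold (adjusted p = 0.00192), H2-Ab1 13.7-fold (0.000949) and Cd74 9.60-fold (0.00458). H2-DMb2 had the smallest adjusted p, at 15.2-fold (log2 3.93, SE 0.49, edgeR adjusted p = 9.17e-09), followed by Ciita at 13.6-fold (log2 3.76, SE 0.63, adjusted p = 7.19e-05). H2-DMb1 was 8.79-fold, H2-DMa 5.31-fold and H2-Oa 3.73-fold higher, whereas H2-Ob, the other H2-O chain, had a log2 fold change of 0.21 (SE 0.56, adjusted p = 0.867). Trac, a T cell receptor gene, was also higher in dendritic-like cells (log2 3.99, adjusted p = 8.59e-05), and the part of T cell RNA in these sums was not tested.

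H2-DMb2 and Ciita were called under all 10 alternatives run. Of the members, 5 were called with no replicate block (H2-Ab1, H2-DMa, H2-DMb1, H2-DMb2 and Ciita), 3 without the early tumor (H2-DMa, H2-DMb2 and Ciita) and 2 when each cell was classed from its own markers. At an unadjusted p under 0.05 edgeR had 8, 9 and 5 members in these settings. Their median log2 fold changes over the members were 2.85, 2.92 and 1.89. By tumor, Ciita was at 152, 261 and 408 CPM in early, medium and late dendritic-like cells and at 9.77, 79.2 and 4.82 in microglia-like cells. H2-DMb2 was at 195, 228 and 304 against 14.3, 31.4 and 9.10. In both genes the classes did not overlap, nor did they in H2-Aa, H2-Ab1, H2-Eb1, Cd74, H2-DMa and H2-DMb1. H2-Oa was at 195, 230.3 and 60.7 against 29.3, 139 and 15.0 and overlapped, as did H2-Ob. The share of all genes without overlap was not counted, so nothing particular to the members is read from this.

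Macrophage or monocyte-like cells exceeded microglia-like cells for 5 of 10 members, where 9.81% of genes tested were called higher. These were H2-Aa (8.14-fold, log2 3.03, SE 0.82, edgeR adjusted p = 0.0134), H2-Eb1 (7.24-fold, 0.0307), H2-DMb1 (4.79-fold, 0.0230), H2-Ab1 (4.45-fold, 0.0442) and H2-DMa (3.27-fold, 0.0184). Cd74 (log2 2.15, SE 0.75, adjusted p = 0.0569), Ciita (1.77, adjusted p = 0.0816) and H2-DMb2 (1.17, 0.185) missed the threshold. H2-Oa had a log2 fold change of -0.58 (adjusted p = 0.532) and H2-Ob of -1.60 (0.123). The median of the members was 1.96, against -0.11 over all genes. No member was called higher without the early tumor, without the late tumor, with no replicate block or with cells classed by their own markers, and 8 were called without the medium tumor. At an unadjusted p under 0.05 edgeR had 1, 4, 2 and 0 members in the first 4 settings. The median log2 fold changes of the members there were 1.42, 1.35, 1.51 and 0.74. DESeq2 called 7 over all tumors. The 5 calls of the main fit thus depended on which tumors entered, on the block and on how cells were classed. Without the early tumor H2-Ob was called lower (log2 -3.96).

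Between stages, the class II sum varied most in microglia-like cells among the named CD45+ classes with a value at each stage. From the early to the medium sample, H2-Aa went from 641 to 6159 CPM, a log2 ratio of 3.26 (3.21 to 3.31), and H2-Eb1 from 512 to 4842, a ratio of 3.24 (3.18 to 3.30). Cd74 went from 1331 to 8658 (log2 2.70), H2-Ab1 from 225 to 1353 (2.59), and H2-DMb1 from 57.9 to 303 (2.39). Ciita went from 9.77 to 79.2, a log2 ratio of 3.02 (2.59 to 3.46), and H2-Oa from 29.3 to 139 (2.25). H2-DMa (1.67), H2-DMb2 (1.15) and H2-Ob (1.13) had the lowest ratios. All 10 members were past 2-fold up, where 5.58% of genes were. The class II sum had a log2 ratio of 2.95, and of 2.65, 3.01 and 2.90 within the 3 runs. Its level lay between 2490.3 and 3987 in the 4 early libraries and between 19894 and 24974 in the 4 medium ones.

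From the early to the late sample the ratio of the same cells was negative. H2-Aa was at 175 CPM in late microglia-like cells (log2 ratio -1.87), H2-Eb1 at 123 (-2.05), Cd74 at 365 (-1.87), H2-DMb1 at 14.5 (-1.98) and H2-Ab1 at 75 (-1.58). These 5 were past 2-fold down, where 4.89% of genes were. H2-DMa, at 169.6 and 137, had a ratio of -0.31 (-0.51 to -0.12), and Ciita, with 9 UMIs late, had -0.95 (-2.20 to -0.02). The class II sum had a ratio of -1.88, and of -1.67 and -2.02 in runs 2 and 3. The ratio followed the cells with at least 10 UMIs of the sum, which were 466 of 3883 early cells with 86.9% of the sum and 24 of 942 late cells with 47.1%. The remaining cells were at 408 CPM early and 401 late, a split by the measured sum and so a description. At the medium stage 461 of 762 cells had at least 10 UMIs, and the others were at 1029 CPM.

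The microglia-like class was made of 7 clusters, and the clusters that held most of it differed by stage. Clusters 4, 2 and 5 held 20.9%, 18.9% and 18.1% of the early cells, clusters 6 and 2 held 28.5% and 27.8% of the medium cells, and cluster 3 held 37.9% of the late cells. In each of the 7 clusters the class II sum was highest at the medium and lowest at the late stage, from 1974 to 4459 CPM early, 12688 to 25954 medium and 280.0 to 1175 late. The late value turned with the definition of the class. With cells classed by their own markers the log2 ratio of late over early was 1.34, with levels of 4263, 36411 and 10822. Of the 1668 late cells so classed, 522 (31.3%) lay in the Rnase2a-led cluster and held 85.1% of their class II sum. The cells classed as microglia-like both ways, 934 late cells, held 2.80%.

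Dendritic-like cells moved little. From the early to the medium sample 0 of 10 members were past 2-fold up, where 15.5% of genes were, and the class II sum had a log2 ratio of -0.35 (-0.38 to -0.31). To the late sample it had a ratio of -0.28 (-0.32 to -0.23). Ciita and H2-Oa were the members past 2-fold late, in opposite directions, Ciita at 152 and 408 CPM (2.67-fold, log2 interval 0.72 to 2.16) and H2-Oa at 195 and 60.7 (0.329-fold, log2 interval -3.10 to -0.50, 7 late UMIs). H2-DMb2 was at 195 and 304, with an interval that included 0 (-0.08 to 1.35). Late dendritic-like cells numbered 44, so these values rest on few cells, and the share of all genes past 2-fold late is not set beside them.

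Border or perivascular macrophage-like cells had a class II sum close to the early one at the medium stage (log2 ratio -0.06, -0.10 to -0.03) and 0.509 times the early level at the late stage. From early to medium 9 of the members stayed within 2-fold, whereas H2-Oa was at 1.84, 58.0 and 0 CPM over the 3 stages, with 1 early UMI. From early to late 4 of the 8 members with enough UMIs were past 2-fold down. The share of all genes is not set beside these counts, so nothing is read from them. In the Rnase2a-led cluster 7 of 10 members were past 2-fold up from early to late, where 19.5% of genes were. H2-Oa was past 2-fold down there (21.6 and 10.1 CPM, on 5 early UMIs). H2-Aa went from 3484 to 7722 CPM (log2 1.15), H2-Ab1 from 819 to 1948 (1.25), H2-Eb1 from 2445 to 5544 (1.18) and Ciita from 8.62 to 69.4, on 2 early UMIs (2.69, interval 1.13 to 6.07). H2-DMb2 is counted among the 7 with 0 early and 47 late UMIs. It and Ciita reached the minimum of 10 UMIs through the late cells, so nothing is read from that count. The late libraries of this cluster ranged from 14899.9 to 25090.0 for the class II sum and the early ones from 6669 to 15371, so they overlapped.

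**Figure D3:**
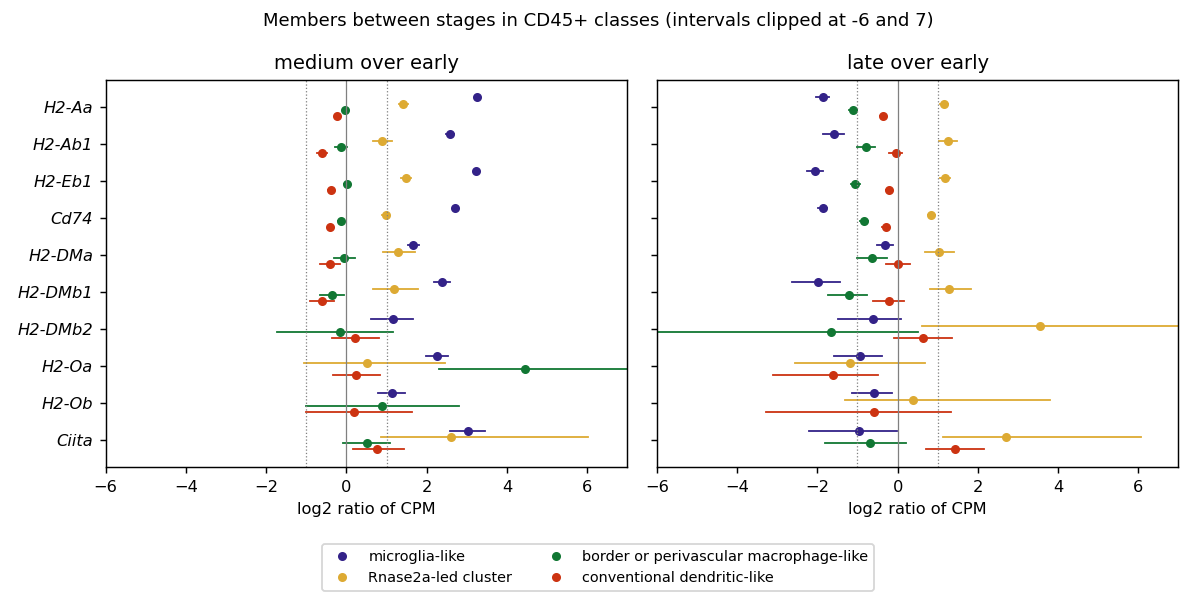
Log2 ratio of CPM, medium over early and late over early, of each class II gene in CD45+ microglia-like, conventional dendritic-like, border or perivascular macrophage-like and Rnase2a-led cells, with exact intervals at 95% drawn no farther than -6 and 7, and dotted lines at 2-fold. All 10 genes lie above 2-fold in medium microglia-like cells (1.13 to 3.26), whereas none does in medium dendritic-like cells.

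At the medium stage the H2-O genes departed from the rest by class. H2-Oa was at 205 CPM in medium plasmacytoid dendritic-like cells, 230.3 in dendritic-like, 139 in microglia-like and 131 in Cxcl9-led cells, against 45.9 in macrophage or monocyte-like and 41.8 in B cell-like cells. H2-Ob was at 71.4 (58.1 to 86.8) in medium microglia-like cells, above its 51.2 (31.3 to 79.0) in dendritic-like and 36.0 in B cell-like cells. The intervals of microglia-like and dendritic-like cells overlapped. Early and late, H2-Ob was lower in microglia-like (32.7 and 21.4) than in dendritic-like cells (43.3 and 26.0). H2-Oa was then at 29.3 and 15.0 in microglia-like and at 47.6 and 12.2 (1 late UMI) in macrophage or monocyte-like cells. B cell-like cells were low for H2-DMb1 (47.6, against 302 to 619 in medium microglia-like, dendritic-like, plasmacytoid dendritic-like and Cxcl9-led cells) and stood between microglia-like and dendritic-like cells for H2-DMb2 (73.5, against 31.4 and 228). The order of a gene across classes is a description here, since each of these values carries the error of 1 tumor.

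In CD45- cells, droplet data hold some RNA released by other cells. This was read in oligodendrocyte-like cells, and through 11 leukocyte genes outside the class II pathway (such as C1qa, C1qb and Csf1r). Their UMIs measured how much leukocyte RNA a class held, and that amount differed between classes. At the medium stage these genes were at 908 CPM in astrocyte-like, 219.6 in endothelial-like, 26.0 in glioma or oligodendrocyte progenitor-like and 19.1 in oligodendrocyte-like cells. The level in oligodendrocyte-like cells thus does not stand for every class. RNA from 1 source would keep the class II sum and the reference genes in 1 ratio in every class. Whether the leukocyte RNA had 1 source was not tested. In CD45- microglia-like cells, which express both, there were 23.8, 60.4 and 0.877 UMIs of the class II sum per 100 reference UMIs at the early, medium and late stage.

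Oligodendrocyte-like cells, 2727 in all, were at 6.30, 102 and 1.000 CPM for the class II sum, with 6.50 (4.07 to 9.91), 533 (382 to 760.4) and 2.41 (0.287 to 8.98) per 100 reference UMIs. The early ratio lay below that of the CD45- microglia-like cells, and the medium ratio above theirs but below the 878 of CD45+ dendritic-like cells. CD45+ microglia-like cells were at 8.96 (8.83 to 9.08), 67.7 (66.7 to 68.7) and 2.75 (2.60 to 2.90). These values lay within the oligodendrocyte-like interval early and late, and below it at the medium stage. At the medium stage 6 of 660 cells held 191 of the 224 UMIs (85.3%), 3 of them with transcripts of the human EGFR transgene. The level was 16.1, 51.3 and 290.3 in runs 1, 2 and 3, and 15.3 CPM in the other 654 cells. Mural-like cells held 0 UMIs of the class II sum in 123 cells. Astrocyte-like cells were at 10.6 early and 12.1 medium, on 2 UMIs of the sum at each. Per 100 reference UMIs that was 1.67 (0.200 to 6.15) and 1.33 (0.160 to 4.90). The medium ratio thus lay far below that of medium oligodendrocyte-like and CD45- microglia-like cells.

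Glioma or oligodendrocyte progenitor-like cells of the CD45- sort had class II RNA mainly at the medium stage. Of these 1203 cells, 62.5% carried human EGFR transgene UMIs. The class II sum was at 2.24 CPM early (1 UMI in 169 cells), 575 medium (1416 UMIs in 428 cells) and 2.75 late (8 UMIs in 606 cells). The reference genes were at 149.8, 26.0 and 35.5, and those of a further list at 206, 40.6 and 29.6. Per 100 reference UMIs the sum was 1.49 (0.0372 to 8.61), 2212 (1722 to 2889) and 7.77 (3.27 to 15.9). The medium ratio exceeded that of medium CD45- microglia-like cells, 60.4 (57.6 to 63.3), and of the Cxcl9-led cells of the same sort, 149 (141 to 158), with no overlap of intervals. Among medium CD45+ leukocytes it was highest in dendritic-like cells, at 878 (840.2 to 917), also below it. With that further list of 8 leukocyte genes, mostly of microglia, the order changed. The glioma or oligodendrocyte progenitor-like ratio was then 1416 (1155 to 1752), and medium CD45+ dendritic-like (3692, 3388 to 4032) and macrophage or monocyte-like cells (1950.3, 1824 to 2087) lay above it, with B cell-like cells at 1598 (1455 to 1759). By run, the class II sum was at 440.1, 590.5 and 652 CPM and the ratio on the first list at 1733, 2066 and 3282, on 12, 41 and 11 reference UMIs.

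The signal was carried by a part of these cells. At least 1 UMI of the sum was found in 171 of the 428 medium cells, and at least 10 in 51, which held 72.0% of the UMIs. Of these 51 cells, 47 carried human EGFR UMIs, 38 no UMI of the 11 reference genes, and 0 a UMI of Ptprc. The 51 cells held 16 reference UMIs and the remaining medium cells 48, which was fewer per cell. The 51 were set apart by the measured sum, so this is a description. At 1000 UMIs per cell, 23.7% (19.7 to 28.1) of medium cells had a UMI, against 0.621% early, 0.697% late and 2.62% (1.53 to 4.15) of medium oligodendrocyte-like cells. Cluster 14, with 240 medium cells, held 1164 of the 1416 UMIs, whereas cluster 20, with 80, held 3. Different clusters made up the class at each stage, since 126 of the 169 early cells were in cluster 20 and 423 of the 606 late cells in cluster 10, and cluster 14 reached 20 cells at the medium stage alone. Within cluster 10 the sum was at 10.7 (1 UMI in 41 cells), 431 and 3.70 CPM at the early, medium and late stage, and within cluster 20 at 0, 10.8 (3 UMIs) and 0. The unnamed Itga8-led cluster, in which 89.0% of 547 CD45- cells carried human EGFR UMIs, is not part of this class. Its 4 early cells had 0 UMIs of the sum, its 13 medium cells held 204, and its 530 late cells held 46 (11.7 CPM), of which 35 were H2-Ab1. That was 15.5% of the late CD45- sum.

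By member, medium glioma or oligodendrocyte progenitor-like cells held H2-Aa at 127 CPM, H2-Ab1 at 86.1, H2-Eb1 at 269, Cd74 at 93.9, H2-DMa at 87.0, H2-DMb1 at 19.5, H2-DMb2 at 2.84 and Ciita at 10.6, with 0 UMIs of H2-Oa and H2-Ob. At the early stage H2-Aa, H2-Ab1 and H2-Eb1 had 0 UMIs in 169 cells. H2-DMa was at 17.9 early and 13.1 late, H2-DMb1 at 6.71 early (3 UMIs) with 0 late, and H2-DMb2 at 2.24 early (1 UMI) and 5.85 late (17 UMIs), above its medium level. From early to medium 7 members were past 2-fold up, where 14.7% of genes were. Since the classical chains reached the minimum of 10 UMIs through the medium cells alone, and H2-DMb2, H2-Oa and H2-Ob did not reach it, nothing is read from that count. Irf8, a transcription factor of myeloid cells that is also induced by interferon, was at 11.2, 61.4 and 22.4 in these cells, whereas Spi1, which defines myeloid cells, had 1, 0 and 0 UMIs.

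**Figure D4:**
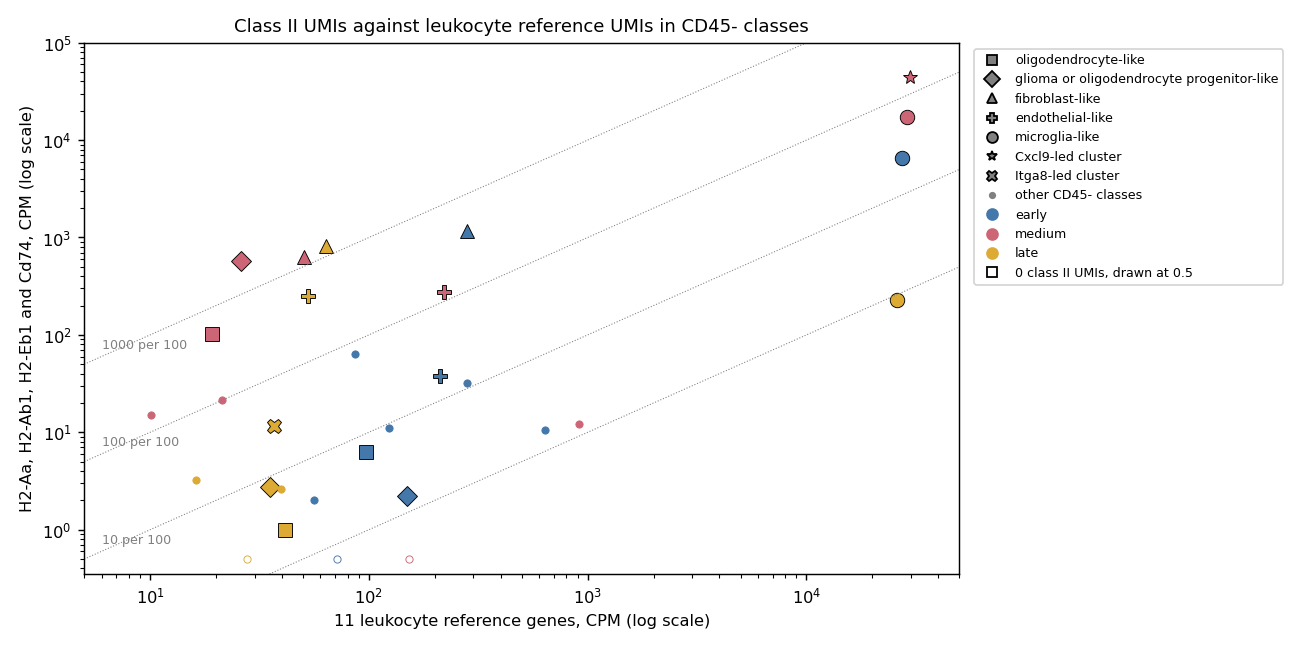
Class II sum against leukocyte reference genes, both in CPM on log axes, for CD45- classes at each stage (shape for class, color for stage), with dotted lines at constant ratios and an open symbol at 0 UMIs. Medium glioma or oligodendrocyte progenitor-like cells (575 against 26.0) and fibroblast-like cells (1177 against 281 early) lie far above early glioma or oligodendrocyte progenitor-like cells (2.24 against 149.8).

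Tested over tumors, H2-DMa was the 1 member called higher in glioma or oligodendrocyte progenitor-like than in oligodendrocyte-like cells, where 16.0% of genes tested were called higher. Of the 10 members in the fit, H2-Oa and H2-Ob had 0 UMIs in both classes and could not differ, which left 8. H2-DMa was 9.26-fold higher (log2 3.21, SE 0.55, edgeR adjusted p = 6.13e-06), at 17.9, 87.0 and 13.1 CPM against 1.64, 5.00 and 1.50. As 1 call among 8 members is no larger a share than that of all genes, it is not read as a trait of the set. Nor was H2-DMa particular to this class. CD45- neuron-like cells held it at 24.1, 48.0 and 25.1 CPM, with a class II sum of 2.01, 21.3 and 2.64. The H2-DMa call stayed under all alternatives run, with log2 fold changes from 2.55 to 3.78. H2-DMb1 (log2 3.14, adjusted p = 0.105) and H2-Aa (2.36, adjusted p = 0.288) missed the threshold. H2-Eb1 (1.75) and Cd74 (1.37) rested on the medium tumor, without which they were -0.87 and -1.70. In the medium tumor the class II sum was at 575 CPM in glioma or oligodendrocyte progenitor-like and at 102 in oligodendrocyte-like cells. Of the latter, 6 of 660 cells held 85.3% of the sum. Why these genes missed the threshold was not tested.

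Fibroblast-like cells of the CD45- sort held class II RNA at every stage. The class II sum was at 1177, 625 and 810.2 CPM in 99, 64 and 57 cells, and per 100 reference UMIs at 418 (333 to 531), 1233 (729 to 2248) and 1267 (749 to 2308). CD45+ dendritic-like cells were at 949, 878 and 789. On the further list the order turned at the medium and late stage, with fibroblast-like cells at 303, 402 and 475 and dendritic-like cells at 3175, 3692 and 2379. The fibroblast-like ratio on the first list also moved with the choice of cells, to 1595 early without the highest doublet scores and to 556 early and 484 late with cells classed by their own markers, so that no order of both classes is read from it. Late, fibroblast-like cells were 2.51% of the sort and held 64.0% of its class II sum. Cells with at least 10 UMIs numbered 16, 7 and 5, of which 12, 5 and 5 had no reference UMI. They held 64.4%, 75.1% and 55.3% of the sum, and the other fibroblast-like cells were at 529.6, 182 and 389 CPM. Of the 16 early cells, 4 shared a barcode with another library of the run. After thinning, 32.3% of fibroblast-like cells (26.1 to 38.9) had a UMI of the sum. H2-DMb1 was at 67.3, 6.75 and 21.3 CPM, H2-Oa and H2-Ob had 0 UMIs at all stages, and Ciita was at 0, 6.75 and 4.26.

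Endothelial-like cells were at 38.2, 276 and 248 CPM, but 1 cell held 49 of the 59 medium UMIs and another held all 33 late UMIs. The late cell also had at least 1 UMI of Ptprc, and the medium cell had 0. Against oligodendrocyte-like cells 0 members were called, H2-Oa having 0 UMIs in both classes, where 12.6% of genes tested were called higher by edgeR. At an unadjusted p under 0.05 there were 2, H2-Aa (log2 4.06, adjusted p = 0.109) and Cd74 (3.48, adjusted p = 0.0908), and DESeq2 called 0. Both were called without the medium tumor (log2 6.82 and 5.05), where that late cell held all late UMIs of the sum.

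The proportions of the chains differed between some CD45- classes and the leukocytes. In medium CD45+ leukocytes there were between 48.9 and 84.5 H2-Eb1 UMIs per 100 H2-Aa UMIs, and between 13.5 and 22 H2-Ab1 UMIs. The Cxcl9-led cluster, which held most of the RNA at that stage, was at 79.3 (78.2 to 80.4) and 15.3 (15.0 to 15.7). Medium CD45- glioma or oligodendrocyte progenitor-like cells were at 212 (185 to 243) for H2-Eb1 and at 67.9 (56.8 to 81.2) for H2-Ab1, above every medium leukocyte class of either sort. Cells of the same class that were caught in the CD45+ sort, 170 at the medium stage, had a class II sum of 2424 and proportions of 127 (111 to 146) and 33.5 (27.1 to 41.2), between the leukocytes and the CD45- cells. Of these 170 cells, the 45 with at least 10 UMIs held 81.3% of the sum, and 14 of the 45 shared a barcode with another library of their run, against 2 of the 51 CD45- cells with at least 10 UMIs. The part of shared barcodes in the proportions was not tested. In medium oligodendrocyte-like cells H2-Eb1 stood at 300.0 (202 to 456) per 100 H2-Aa UMIs, and in fibroblast-like cells at 27.4 (16.5 to 43.9), below every medium leukocyte class. CD45- microglia-like and Cxcl9-led cells, at 85.8 (77.1 to 95.5) and 84.1 (76.6 to 92.4) for H2-Eb1, and endothelial-like cells, at 73.7 (34.2 to 155) on 19 H2-Aa UMIs, had intervals that overlapped the range of the CD45+ leukocytes. These intervals cover counting only, and UMIs of a few cells carry them, as given above.

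**Figure D5:**
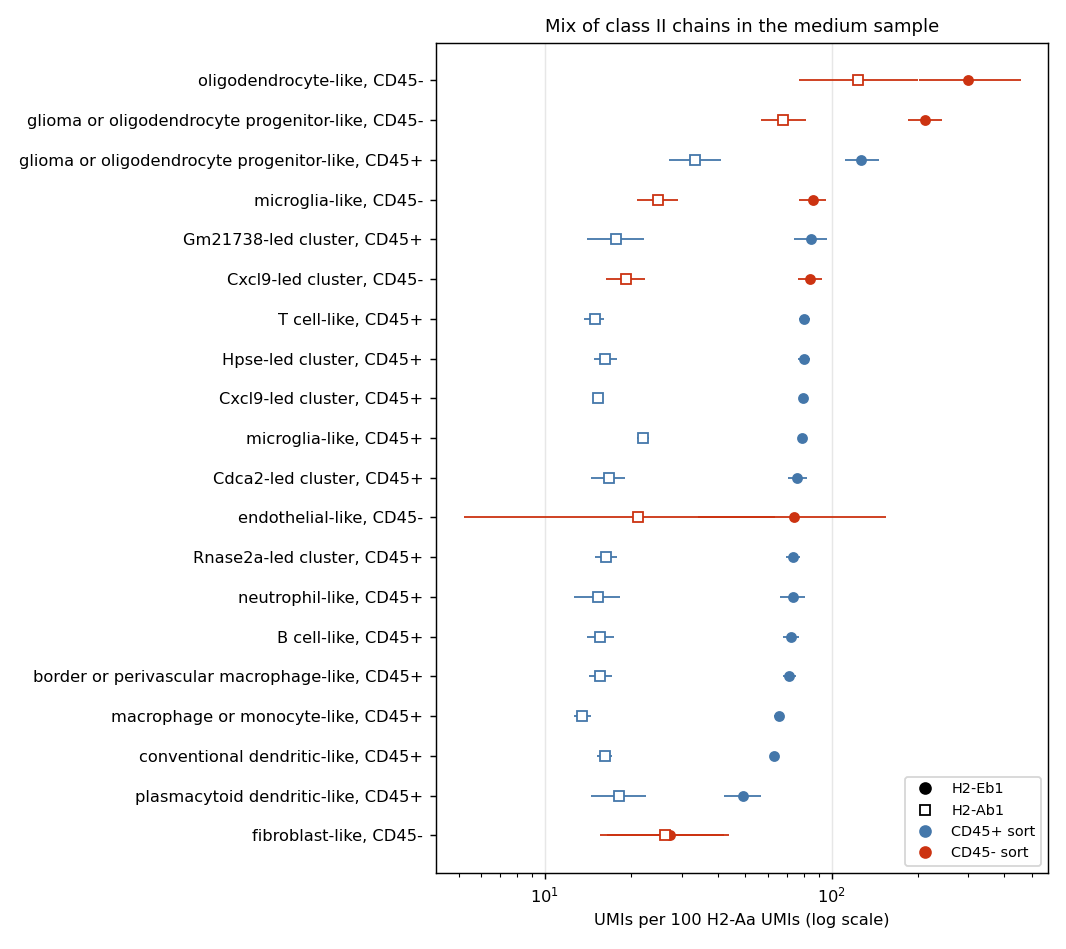
H2-Eb1 (filled circles) and H2-Ab1 (open squares) UMIs per 100 H2-Aa UMIs (log axis) in medium-stage classes of the CD45+ (blue) and CD45- (red) sort with at least 50 UMIs of the class II sum, with exact intervals at 95%. CD45+ leukocyte classes lie between 48.9 and 84.5 for H2-Eb1, whereas CD45- glioma or oligodendrocyte progenitor-like cells lie at 212 and fibroblast-like cells at 27.4.

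Other genes of the pathway were read from lists, of which the 3 most abundant are given for the sorts, and genes named for the classes were named after their values were seen. Between sorts, where 20.3% of genes tested were higher and 25.7% lower in CD45+ cells, 10 of 12 processing and loading genes were higher and 1 (March8) lower, with Ctsd at 6017 against 495, Ctss at 4360.4 against 234 and Ctsb at 4256 against 786 CPM. Of 19 regulators 12 were higher and 1 (Rfxap) lower, with Irf8 at 512 against 30.1, Ifngr1 at 422 against 75.1 and Spi1 at 313 against 10.7. All 6 costimulation genes were higher, with Cd83 at 2138 against 131, Icam1 at 228 against 21 and Cd86 at 87.2 against 4.51. The 5 tested T cell genes were higher, Lag3 at 64.0 against 4.36 and Trac at 43.3 against 0.119, with Ifng, the gene of interferon gamma, at 25.7 against 0. The 11 reference genes and the 8 genes of a further leukocyte list (Cx3cr1 and P2ry12 among them) were all higher.

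In dendritic-like against microglia-like cells 1 of 12 processing genes was higher and 7 were lower, where 12.5% and 7.24% of genes tested were. Ifi30, a lysosomal thiol reductase, was higher (log2 2.22, edgeR adjusted p = 7.32e-08), and the proteases Ctsd (-2.97), Ctss (-1.98) and Ctsb (-1.95) were lower. Of 16 regulators 3 were higher, Irf4 (log2 4.12), Socs1 (2.56) and Jak2 (2.48), and Ifngr1 was lower (-0.80). Of 6 costimulation genes Cd40 (4.97) and Cd80 (1.93) were higher and Icam1 (-1.52) lower, and of 5 T cell genes Trac was higher and Lag3 (-3.43) lower. None of the reference genes was higher, 10 of 11 and 8 of 8 of the leukocyte lists being lower.

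In macrophage or monocyte-like against microglia-like cells, where 9.81% of genes tested were higher and 6.52% lower, 2 of 12 processing genes were higher, Ifi30 (log2 1.98) and Tmem106a (2.07), and 4 lower, Ctsd (-2.32), Cd9 (-2.26), Lgmn (-2.01) and Ctsl (-0.87). Of 16 regulators Socs1 alone was called (3.34). Of 6 costimulation genes Cd40 was higher (4.75) and Cd83 (-1.24) and Icam1 (-2.14) lower, and of 5 T cell genes Trac was higher (2.74) and Lag3 lower (-2.96). Of the leukocyte lists 7 of 11 and 8 of 8 were lower. In glioma or oligodendrocyte progenitor-like against oligodendrocyte-like cells 4 of 17 regulators were higher, Irf8 (20.2-fold, edgeR adjusted p = 4.73e-06), Irf1 (18.4-fold, 7.53e-08), Socs1 (15.0-fold, 0.00481) and Ifngr2 (2.65-fold, 0.0426), where 16.0% of genes tested were higher and 10.7% lower. Processing genes were 1 of 12 higher (Ifi30, log2 2.03) and 3 lower there (Ctsb, Lgmn and March8). Of the leukocyte lists 1 of 11 (Cd53) and 0 of 8 were lower, and 0 of 5 costimulation genes and 0 of 1 T cell gene were called. In endothelial-like against oligodendrocyte-like cells, where 12.6% of genes tested were higher and 14.5% lower, 2 of 12 processing genes were higher (Ctsh and Tmem106a) and 5 lower (Ctsb, Lgmn, Cd9, March8 and March1). There 3 of 17 regulators (Irf8, Irf1 and Prdm1) and 3 of 5 costimulation genes (Cd83, Icam1 and Cd40) were higher, and 0 genes of the leukocyte lists and the T cell list were called.

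Of 4 further class II loci in the table, H2-Ea-ps, the I-E alpha locus annotated as a pseudogene, was the 1 with enough counts to test. It was at 1945, 1318 and 868 CPM in dendritic-like and at 38.3, 392 and 5.35 in microglia-like cells (log2 4.42, edgeR adjusted p = 0.000413), and was higher in macrophage or monocyte-like cells too (3.31, adjusted p = 0.00515). H2-Eb2 was highest in B cell-like cells, at 34.6 (24 UMIs), and H2-Pa had 0 UMIs.

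Likeness to the mean of H2-Aa, H2-Ab1, H2-Eb1 and Cd74 was measured as Pearson's r of log2(CPM + 10) over 27 sums of CD45+ classes and stages, which share libraries, among 8554 genes. H2-Ea-ps was most alike (r = 0.96), then Psme1 (0.86), a proteasome activator subunit, Plekho2 (0.83), Gm26384 (0.82) and the receptor kinase Axl (0.81). Among the members outside that mean H2-DMb1 (0.96) and H2-DMa (0.95) were closest, then Ciita (0.79), H2-DMb2 (0.64), H2-Oa (0.59) and H2-Ob (0.56).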

How the data were processed

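The authors mapped inDrop reads with RapMap in bcbio-nextgen to the GRCm38 transcriptome (Ensembl v94, mm10 per the labels) including the transgenes, and separated cells from empty droplets. Values as deposited are raw UMI counts, with a column for each cell, and were not normalized by the authors. A deposited text annotation (unit: other) gives run, barcode, sort and stage of each library. Ambient RNA and doublets were removed according to the methods, which do not say whether this preceded the deposit. The 3 deposited samples are 3 runs that mix all stages and sorts.

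Cells with at least 500 UMIs and 500 genes and at most 20% mitochondrial UMIs were kept. Scrublet (expected rate 6%) called 113 of 17786 cells (0.635%), which were removed, and another setting dropped the 5% with the highest scores. Clustering used scanpy 1.11.5 and leidenalg 0.10.2 (2000 variable genes, 40 components, 20 neighbours, resolution 2, seed 1) without the members, the pathway lists or the leukocyte reference lists where these were not markers. A cluster was named when at least 3 markers of a class, and a share of at least 0.4 of them, were 2-fold higher than elsewhere and seen in at least 10% of its cells. Of 40 clusters, 6 with 3158 cells stayed unnamed. A level is a UMI count in CPM, with exact Poisson intervals at 95%, and ratios have exact conditional intervals. Log2 ratios between stages took a prior of 0.5 counts and genes with at least 10 UMIs. Shares have Clopper-Pearson intervals.

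Sums of at least 20 cells were tested with edgeR 4.0.16 in R 4.3.3 (quasi-likelihood, TMM, filterByExpr, robust, two-sided, Benjamini-Hochberg over all genes tested, threshold 0.05). The fits had 6, 38 and 31 sums for the sorts, the CD45+ classes and the CD45- classes, with 2, 19 and 16 residual degrees of freedom. The code was also run on simulated counts with the same dispersion for all genes and no differences between tumors. That setting differs from these data, so nothing is read from it. The early, medium and late tumors are replicates 1, 2 and 3, and same-numbered sums come from the same tumor, so the tumor was a block. Their deviations correlated at 0.38, 0.28 and 0.30 between sorts, with medians of 0.10, 0.10 and 0.07 among CD45+ and 0.09, 0.03 and 0.07 among CD45- classes. SEs come from the fit. Alternatives were DESeq2 1.42.0, no TMM, no filter, no block, leaving out a tumor, a class from each cell's own markers, clustering with the lists kept, other doublet handling, single runs, thinning to 500 UMIs and a further reference list. Chosen after seeing the data were resolution 1, removal of shared barcodes and removal of the smallest library. B cell-like cells were not tested against microglia-like cells, since a single tumor reached 20 of them.

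The text names the 10 members, the 3 most abundant genes of each list in CD45+ cells and the 5 genes most like the class II sum. The members and lists were chosen with earlier results of these data known. Promoter letters were searched in RefSeq sequence of GRCm38.p6. An item of the shared genotype and an item of a gene list are not reported here.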

Additional observations from a re-analysis of the deposited data

Results flagged for a closer look

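Between some CD45+ classes the class II sum moved in opposite directions between the same stages, each stage being 1 tumor sample. The differences were not tested. From early to medium the log2 ratio was 2.95 in microglia-like and -0.35 in conventional dendritic-like cells. From early to late it was 1.04 in the Rnase2a-led cluster and -1.88 in microglia-like cells, and the latter was 1.34 with cells classed by their own markers. Other pairs moved apart as well. From early to medium the log2 ratio was also above 0 in T cell-like cells (2.03), in the Gm21738-led cluster (3.15) and in the Cxcl9-led cluster (28098 and 56739.9 CPM), and -0.06 in border or perivascular macrophage-like cells. From early to late it was 0.96 in the Gm21738-led cluster, against -1.14 in the Cxcl9-led cluster, -0.97 in border or perivascular macrophage-like and -1.57 in T cell-like cells.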

How the results depend on the processing

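For the main values of the comparisons, 131 alternatives stayed within the interval of the value or, for counts of members called, near the main count. A further 51 moved the value beyond its interval, 9 had clearly fewer and 4 clearly more members called, and 1 reversed. For single genes 471 kept direction and side of the threshold, 52 lost and 13 gained a call and 22 reversed. The cause of the changes below was not tested.

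With no filter on low counts, the members called higher were 5 between sorts, 3 in macrophage or monocyte-like and 2 in glioma or oligodendrocyte progenitor-like cells. With no replicate block for the pairing by tumor they were 0 in macrophage or monocyte-like and 5 in dendritic-like cells, and the other 3 counts of members called did not change. With cells classed by their own markers they were 0 and 2. Resolution 1 gave 8 in macrophage or monocyte-like cells, and could not be run for dendritic-like cells. Leaving out a tumor gave 8 to 10 between sorts, 0 to 8 (macrophage or monocyte-like), 3 to 9 (dendritic-like), 0 to 2 (endothelial-like) and 1 to 1 (glioma).

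The log2 ratio of the class II sum in microglia-like cells, medium over early, was 3.09 with own markers, 2.78 with the lists kept in clustering, 2.65, 3.01 and 2.90 in single runs, 2.88 at resolution 1 and 3.05 as a mean over cells. Late over early, it reversed to 1.34 with own markers and was otherwise -1.78, -1.67 and -2.02 (runs 2 and 3), -1.69 and -1.63. Dendritic-like cells gave -0.48 (own markers, medium), and late -0.50, -0.33 (shared barcodes removed) and -0.34 (mean over cells). Border or perivascular macrophage-like cells gave -0.34 and -0.02 (medium), and -0.69, -0.92 and -0.88 (late), in the same settings.

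The class II sum per 100 reference UMIs moved as follows. With own markers it was 20.1 and 774 in early and medium oligodendrocyte-like, 556 and 484 in early and late fibroblast-like and 833 in medium endothelial-like cells. Removing the highest doublet scores gave 339 in medium oligodendrocyte-like, 1595 in early fibroblast-like and 500 in medium endothelial-like cells. The further reference list gave 356 and 1416 in medium oligodendrocyte-like and glioma or oligodendrocyte progenitor-like cells, the latter below the 3692 of medium CD45+ dendritic-like cells, and 303, 402 and 475 in fibroblast-like cells, against 3175, 3692 and 2379 in dendritic-like cells. Single runs gave 66.7, 353 and 1079 in medium and 0 in late oligodendrocyte-like cells (runs 1 and 2), 0, 3282 and 20 in early, medium and late glioma or oligodendrocyte progenitor-like cells (runs 3, 3 and 2), and 319 in early fibroblast-like cells. Thinned to 500 UMIs, the shares with class II UMIs were 25.7%, 71.4% and 17.7% in microglia-like cells by stage, 97.8% in dendritic-like, 1.36% and 0% in medium and late oligodendrocyte-like, 16.6% in medium glioma or oligodendrocyte progenitor-like and 30.3% in early fibroblast-like cells.

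Single genes that changed sign were H2-Oa in macrophage or monocyte-like cells (-1.40 to 0.27 without replicates 1 and 2, 1.06 at resolution 1) and H2-Ob in dendritic-like cells (-0.18 with every gene, -0.19 to 0.36 leaving out a tumor, with -0.08 without replicate 3, -0.24 without high doublet scores). In endothelial-like cells they were H2-Ab1 (-0.02 with every gene, -0.01 with no replicate block, -0.13 without replicate 3 and up to 1.11, -0.54 with own markers), H2-DMa (-4.88 to 0.32, the latter without replicate 2) and H2-DMb1 (-2.46 to 4.39, the former without replicate 3, -0.07 with own markers). In glioma or oligodendrocyte progenitor-like cells they were H2-Eb1 (-0.87 to 1.97) and Cd74 (-1.70 to 1.62), both lowest without replicate 2, H2-DMb2 (-0.04 with DESeq2, -0.02 with no replicate block, -0.27 to 0.34, lowest without replicate 3, -0.06 and -0.30 without high doublet scores and at resolution 1) and H2-Oa (-0.05 without TMM, -0.47 to 0.22, lowest without replicate 3). H2-Oa, like H2-Ob, had 0 UMIs in both classes, so its fitted value is no measure of a difference.

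Calls over all genes, higher and lower, were 1173 and 780 for macrophage or monocyte-like cells and 891 and 1153 with every gene, 647 and 522, and 661 and 592 without replicates 1 and 2, 442 and 513 with own markers, and 940 and 1045 without shared barcodes. For dendritic-like cells they were 1495 and 866, against 1279 and 1129 without TMM, 1033 and 1416 with every gene, 811 and 719, 836 and 745, and 977 and 836 without replicates 1, 2 and 3, 514 and 641 with own markers, and 1170 and 1191 without shared barcodes. For endothelial-like cells they were 1769 and 2035, against 2360 and 1425 without TMM and 1314 and 1290 without replicate 3. For glioma or oligodendrocyte progenitor-like cells they were 2246 and 1504, against 3577 and 941 without TMM, 1588 and 926 without replicate 3, and 1417 and 1134 with own markers. Between sorts they were 3958 and 5018, against 1748 and 2037 in run 1 alone. At a median of 2143 UMIs per cell, H2-Oa, H2-Ob, H2-DMb2 and Ciita were seen in few cells, and their stage ratios rest on counts as low as those given.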
